A study of Homo sapiens with 3 samples.

Results

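ZBTB11 peaks were examined at a group of lung differentiation genes, namely NKX2-1, FOXA1, FOXA2, SFTPA1, SFTPA2, SFTPB, SFTPC, SFTPD, SCGB1A1 and NAPSA, which are 10 of the 20033 protein-coding genes annotated by GENCODE on chromosomes 1 to 22, X and Y. They were taken from a fixed list of names and not by any measured value. The study searched for the places of the zinc finger protein ZBTB11 on the chromatin of NCI-H1299 by chromatin immunoprecipitation followed by sequencing (ChIP-seq). NCI-H1299 is an established human cell line labelled as lung adenocarcinoma. The line lacks p53. The labels give the genotype as wild-type and name no modification, and the cells were untreated. A single library was made with an antibody against ZBTB11 and another with normal IgG as the negative control; an Input library also exists and was not used here. Peak lists hold no RNA, and the RNA-seq that the study ran on H1299 cells was not used. Whether these cells express any of the 10 genes was therefore not examined here. Every value below comes from 1 library per antibody, no difference has a replicate check, and no test was run.

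NKX2-1, FOXA1 and FOXA2 are transcription factors that specify lung epithelium and switch on its secretory genes, and NKX2-1 is widely used as a marker of lung adenocarcinoma. Alveolar type II cells make pulmonary surfactant, the film that lowers surface tension in the air spaces. Its proteins are the collectins SP-A (SFTPA1 and SFTPA2) and SP-D (SFTPD), which bind microbes, and the small hydrophobic proteins SP-B (SFTPB) and SP-C (SFTPC), which spread the lipid film. SCGB1A1 is the secretoglobin of airway club cells, and NAPSA encodes napsin A, an aspartic protease that takes part in SP-B processing.

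The ZBTB11 list held 346891 peaks on these chromosomes, with 3 fragments at the summit of the lowest peak and a median of 5, over a genome-wide background of 1.35 fragments. The IgG list held 26712 peaks, at least 4 fragments each, over a background of 1.55. It held peaks on 4 chromosomes only and was used for genes on chromosomes 1, 10 and 21, so it offers a control for SFTPA1, SFTPA2 and SFTPD and for none of the other 7 genes. A fragment count is the pileup at the summit, and the fold enrichment is that count plus 1 over the local background plus 1. Intervals on fragment counts are exact Poisson 95% intervals and cover counting error only.

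A ZBTB11 peak lay within 3 kb of an annotated transcript start (TSS) in 8 of the 10 genes, and FOXA2 and SFTPA1 had none. Of all protein-coding genes, 87.7% had such a peak. The 8 genes had 19 peaks, of 3 to 13 fragments with a median of 5. Peaks are called q-filtered below where the q-value did not exceed 0.05, and strict where the p-value did not exceed 1e-05. A q-filtered peak was left in 5 of the 10 genes (NKX2-1, FOXA1, SFTPC, SFTPD and NAPSA), a share of 50% (23.7% to 76.3%, Wilson 95% interval), against 55.3% of protein-coding genes. A strict peak was left in 3 (NKX2-1, FOXA1 and SFTPC), a share of 30% (10.8% to 60.3%), against 46.9%. The 10 genes are a whole list and not a sample, so the intervals were not used to compare them with all protein-coding genes. The median over the 10 genes of the −log10 p of the strongest such peak was 3.68, with genes without a peak taken as 0, and it was 4.54 over all protein-coding genes. For scale, the 8 genes that the study checked by ChIP-qPCR had 307 to 487 fragments at their strongest peak, far more than the 13 fragments of FOXA1, the highest of the lung genes. Most of the 10 genes thus carried a listed ZBTB11 peak, as most genes did. All these peaks were low beside those of the 8 checked genes, which rank 59 to 378 in the list by p-value. Within the list of 346891 peaks, the strongest peaks of FOXA1, NKX2-1 and SFTPC ranked 7930, 10733 and 11120.

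**Figure D1:**
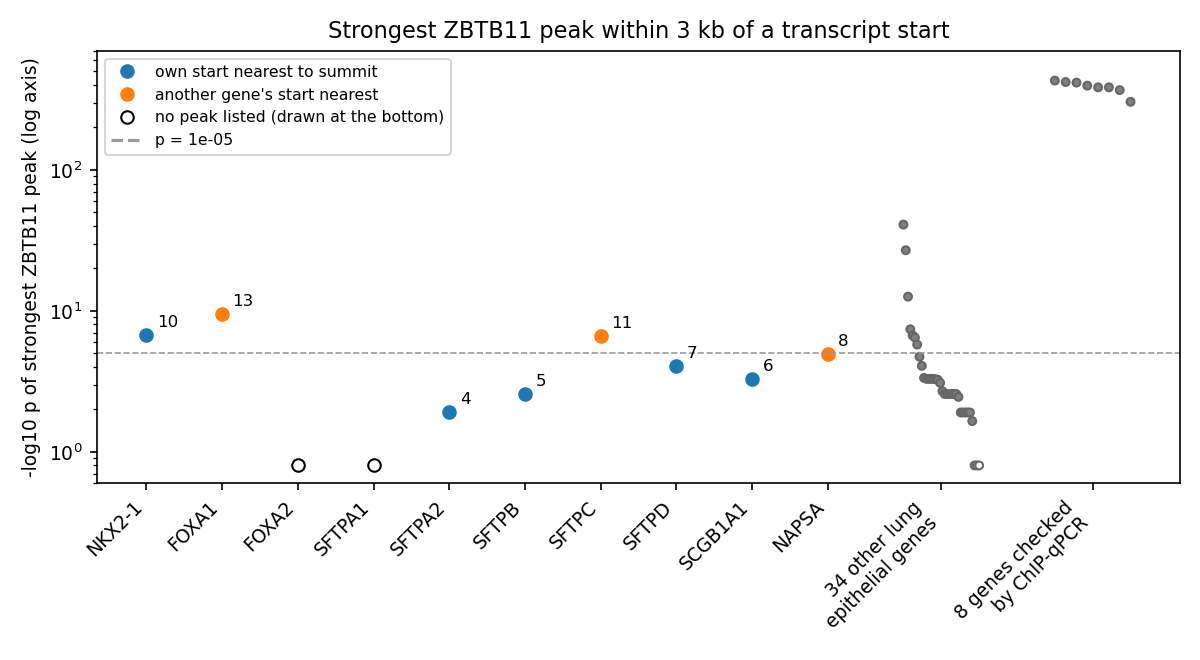
Strongest ZBTB11 peak within 3 kb of a transcript start, as −log10 p on a log axis, for the 10 lung genes (numbers beside the points are fragments at the summit), 34 other lung epithelial genes and the 8 genes checked by ChIP-qPCR. Open points at the bottom are genes with no listed peak, and FOXA1, NKX2-1 and SFTPC are the lung genes above the dashed line at a p-value of 1e-05.

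Among the transcription factors, FOXA1 had the strongest peak of the 10 genes. FOXA1 is a forkhead factor that opens closed chromatin for other factors. Its single peak (hg38, chromosome 14, 37595274 to 37595823) had 13 fragments (6.92 to 22.2) against a local background of 1.39, with a fold enrichment of 5.85, a −log10 p of 9.49 and a −log10 q of 6.44. Of all protein-coding genes, 32.7% had a peak of smaller p-value near a TSS. The summit lay at 37595456, inside the annotated gene and 207 bp upstream of the start of the canonical transcript. A start of TTC6, which is transcribed in the opposite direction, lay 173 bp from the same summit, so this peak cannot be given to FOXA1 alone.

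NKX2-1 is the homeobox factor that defines the lung and thyroid lineages. It had 2 peaks near a TSS. The stronger one (chromosome 14, 36519579 to 36520187) had 10 fragments (4.80 to 18.4) against a local background of 1.35, with a fold enrichment of 4.67, a −log10 p of 6.69 and a −log10 q of 3.78. Its summit at 36520026 lay in an intron of the canonical transcript, 206 bp downstream of the canonical start, and the nearest start of another gene, SFTA3, was 505 bp away. The other peak, at 36521061 to 36521460, had 3 fragments and a −log10 p of 1.31, the lowest pileup in the list. NKX2-1 was the only one of the 10 genes with a strict peak whose summit was nearest to a start of the gene itself.

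FOXA2, the other forkhead gene of the group, had no ZBTB11 peak near a TSS or in the gene (chromosome 20, 22580998 to 22585455). The nearest listed summit was 4907 bp from the canonical start, and the nearest strict peak was 766185 bp away, 34 bp from a start of NXT1. The median of this distance was 50260 bp over the 10 genes and 12650 bp over all protein-coding genes. FOXA2 had the longest distance of the 10.

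The summit windows of FOXA1 and NKX2-1 are shown because these peaks are the strongest ones close to a start of their genes. Each runs 50 bp to either side of the summit on the plus strand of hg38, at chr14:37595406-37595506 and chr14:36519976-36520076.
FOXA1: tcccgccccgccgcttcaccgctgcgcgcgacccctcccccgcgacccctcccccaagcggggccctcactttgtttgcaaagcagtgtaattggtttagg
NKX2-1: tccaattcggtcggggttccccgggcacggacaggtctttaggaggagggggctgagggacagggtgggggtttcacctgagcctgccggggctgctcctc
The consensus searched was CCGGAAG or CAGGAAG, and neither word stood on either strand in these windows or elsewhere in these peaks. Capitals would mark a match, so both are printed in lower case.

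**Figure D2:**
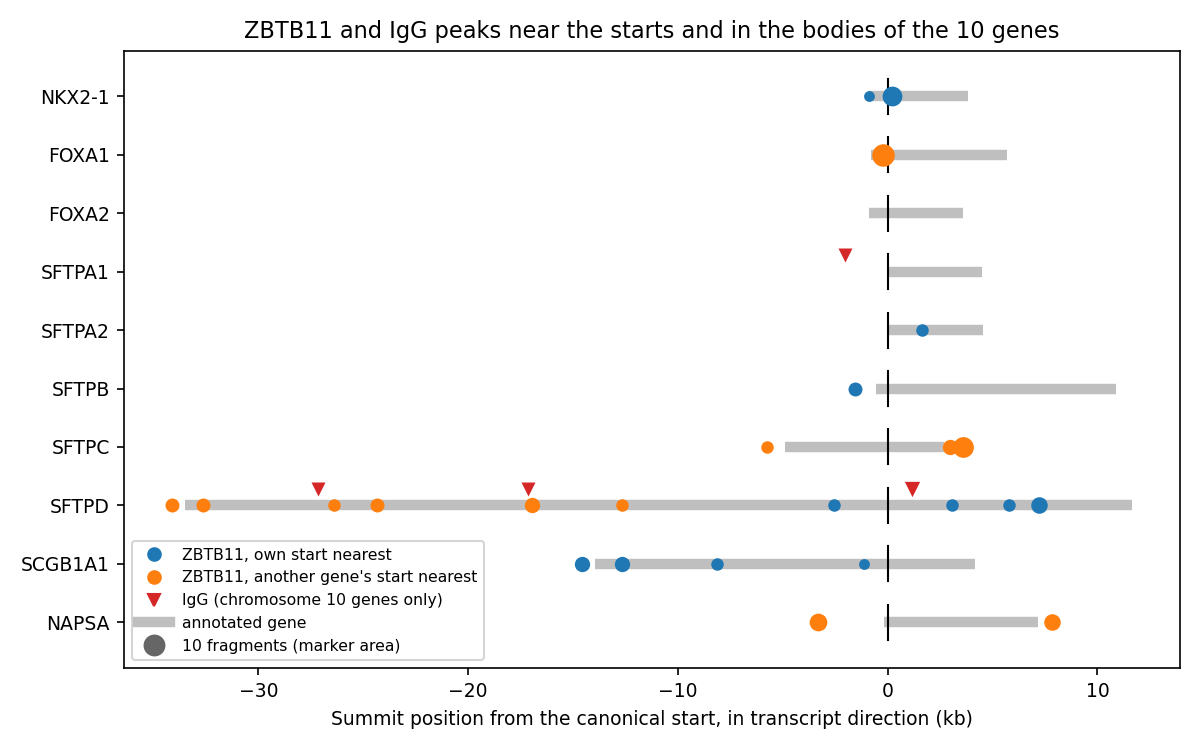
Peaks within 3 kb of a transcript start or in the gene body of each of the 10 genes, by position of the summit from the canonical start in kb, with marker area in proportion to the fragments at the summit (3 to 13 for ZBTB11, 5 or 6 for IgG). Blue circles are ZBTB11 peaks nearest to a start of the gene itself, orange circles ZBTB11 peaks nearest to a start of another gene, red triangles IgG peaks, and grey bars the annotated genes; FOXA2 has no peak.

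SFTPB had 1 peak near a TSS (chromosome 2, 85669292 to 85670154), 863 bp wide but with only 5 fragments (1.62 to 11.7), a fold enrichment of 2.55, a −log10 p of 2.57 and a −log10 q of 0.239. Its summit lay 1015 bp upstream of the nearest SFTPB start. No peak lay in the SFTPB gene. Among the 19 peaks near a TSS of the 10 genes, this was the only one with the consensus within 50 bp of the summit. The summit was the last base of CAGGAAG, 3 bp from the middle of the word. The window (hg38 plus strand, chr2:85669706-85669806) is shown with the consensus in capitals.
SFTPB: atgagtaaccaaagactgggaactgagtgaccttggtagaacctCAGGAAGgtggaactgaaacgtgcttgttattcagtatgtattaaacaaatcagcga

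Of the surfactant genes, SFTPC was the only one with a strict peak near a TSS, and that peak belonged by position to its neighbour. The peak (chromosome 8, 22165125 to 22166039) had 11 fragments (5.49 to 19.7) against a local background of 1.70, with a fold enrichment of 4.44 and a −log10 p of 6.59. Its summit at 22165372 coincided with a start of BMP1, the gene of a procollagen protease, at a distance of 0 bp, whereas the nearest start of SFTPC was 2292 bp away and the peak lay outside the SFTPC gene. A second SFTPC peak of 6 fragments was also nearest to BMP1, at 378 bp. The remaining one, of 4 fragments, was nearest to LGI3, at 626 bp. No SFTPC peak near a TSS was nearest to SFTPC itself, and none lay in its gene body.

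The collectin genes lie on chromosome 10, where both antibodies can be compared. SFTPA1 (79610939 to 79615455) had no ZBTB11 peak near a TSS or in the gene, and 1 IgG peak at 79608848 to 79609346 with 5 fragments (1.62 to 11.7) and a fold enrichment of 2.35, 2020 bp upstream of the nearest start. SFTPA2 (79555852 to 79560407) had 1 ZBTB11 peak at 79558528 to 79558785 with 4 fragments (1.09 to 10.2), a fold enrichment of 2.12 and a −log10 p of 1.90, in an intron 1662 bp downstream of the canonical start, and no IgG peak. The antibodies thus gave 1 low peak each, at different genes, so their pileups were not compared at the same place. A strict peak was 214626 bp from the canonical start of SFTPA1 and 212430 bp from that of SFTPA2.

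SFTPA1 and SFTPA2 are near copies, and part of the sequence around them occurs more than once in the genome. Of the 31-mers within 3 kb of the canonical start, 31.1% (SFTPA1) and 29.7% (SFTPA2) had a further exact copy in the genome, and 29.4% of each window occurred in the other. The RefSeq promoter sequences (GRCh38.p14, 250 bases before to 50 after a start) of SFTPA1 at chr10:79610689-79610988 on the plus strand and of SFTPA2 at chr10:79560358-79560657 on the minus strand are shown to make this visible, with bases that do not match the other gene in capitals.
SFTPA1: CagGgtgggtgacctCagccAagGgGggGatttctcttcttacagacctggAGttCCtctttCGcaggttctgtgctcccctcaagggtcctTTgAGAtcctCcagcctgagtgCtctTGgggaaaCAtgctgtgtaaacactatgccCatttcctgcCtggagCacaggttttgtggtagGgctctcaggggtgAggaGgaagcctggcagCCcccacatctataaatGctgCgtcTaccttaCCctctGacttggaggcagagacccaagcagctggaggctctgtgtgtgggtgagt
SFTPA2: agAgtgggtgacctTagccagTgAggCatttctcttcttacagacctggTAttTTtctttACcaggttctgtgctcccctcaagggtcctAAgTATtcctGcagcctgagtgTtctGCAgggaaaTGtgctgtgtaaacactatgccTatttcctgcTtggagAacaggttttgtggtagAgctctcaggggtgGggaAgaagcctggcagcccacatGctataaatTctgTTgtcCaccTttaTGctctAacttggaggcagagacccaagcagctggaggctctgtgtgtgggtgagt
Of 296 aligned bases, 262 were identical (88.5%). At the summits, 0% of the 31-mers of the SFTPA1 IgG peak and 15.5% of those of the SFTPA2 ZBTB11 peak had a further copy. How the authors treated reads that match more than 1 place is not given in the sources used here.

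SFTPD, the longest of the genes at 45148 bp (chromosome 10, 79937467 to 79982614), had 10 ZBTB11 peaks near a TSS or in the gene body and 3 IgG peaks. The ZBTB11 peaks had 4 to 7 fragments and the IgG peaks 5 or 6, so the antibodies did not separate by pileup. The strongest ZBTB11 peak (79941569 to 79942095) had 7 fragments (2.81 to 14.4), a fold enrichment of 3.40, a −log10 p of 4.07 and a −log10 q of 1.37, in an intron 7215 bp downstream of the canonical start. It was near a TSS only through an annotated start 2818 bp away. The strongest IgG peak (79947865 to 79948127) had 6 fragments (2.20 to 13.1), a fold enrichment of 2.74 and a −log10 p of 2.95, also in an intron and 1182 bp downstream of the canonical start. One region was listed with both antibodies, by 186 bp of overlap, at 79965960 to 79966243 for ZBTB11 (6 fragments) and 79966058 to 79966320 for IgG (5 fragments). In both summit windows of this region, 100% of the 31-mers had a further copy in the genome. So did at least 91.5% of those of 3 other ZBTB11 peaks in the upstream part of the gene, all of 4 or 5 fragments, and 0% in the 6 ZBTB11 peaks near a TSS.

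**Figure D3:**
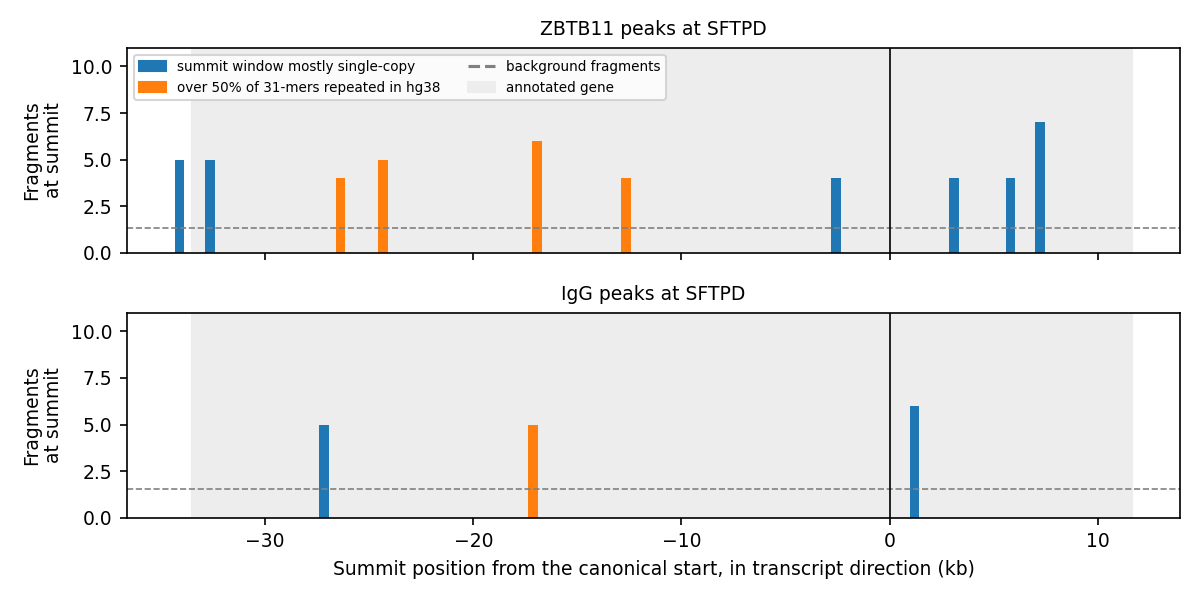
Fragments at the summit of each ZBTB11 peak (top, 10 peaks of 4 to 7 fragments) and each IgG peak (bottom, 3 peaks of 5 or 6 fragments) at SFTPD, by distance from the canonical start in kb, with the genome-wide background of each library dashed (1.35 and 1.55). Orange bars are summits in repeated sequence, which hold 4 of the 10 ZBTB11 and 1 of the 3 IgG peaks.

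Among the 3 collectin genes, 2 carried a ZBTB11 peak near a TSS (SFTPA2 and SFTPD) and 2 had an IgG peak there (SFTPA1 and SFTPD). Of the 3011 protein-coding genes on chromosomes 1, 10 and 21, 87.3% had such a ZBTB11 peak and 68.7% such an IgG peak. In the gene body, 2 of the 3 genes had a ZBTB11 peak, against 87.8%, and 1 an IgG peak, against 76.3%. None of the 4 IgG peaks at these genes was q-filtered.

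SCGB1A1 had 3 peaks near a TSS and 1 more in the gene body (chromosome 11, 62405103 to 62423195). The strongest, at 62404287 to 62404770, had 6 fragments (2.20 to 13.1), a fold enrichment of 2.97, a −log10 p of 3.29 and a −log10 q of 0.724. It lay 641 bp from an annotated start, and its summit was at -14571 bp from the canonical one. The peak closest to the canonical start, 1149 bp upstream of it, had 3 fragments and a −log10 p of 1.31.

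NAPSA had 2 peaks near a TSS, both q-filtered, both outside the gene (chromosome 19, 50358472 to 50365830) and both closer to another gene. The stronger, at 50368712 to 50369147, had 8 fragments (3.45 to 15.8), a fold enrichment of 3.82 and a −log10 p of 4.90, just short of the limit of 5. Its summit was 365 bp from the lncRNA ENSG00000269392 and 3136 bp from NAPSA, so the peak reached the 3 kb window by its edge. The other, at 50357632 to 50357928 with 7 fragments and a fold enrichment of 3.40, was 800 bp from a start of NR1H2 and 1415 bp from one of NAPSA. Of the 31-mers within 3 kb of the canonical NAPSA start, 35.4% had a further copy in the genome, but at most 1.41% of those at the summits did.

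A far higher peak stood next to NAPSA. It lay at 50375977 to 50376807, 10694 bp upstream of the canonical NAPSA start and 124 bp from a start of NR1H2, the gene of a nuclear receptor for oxysterols, with 420 fragments, a fold enrichment of 22.7 and a −log10 p of 408. The nearest strict peak of FOXA2 held CCGGAAG within 50 bp of its summit, as did this one. Those of SFTPA1 and SFTPA2 (12 fragments each), SFTPB (58), SFTPD (66) and SCGB1A1 (130) held neither word there. Outside that window these neighbouring peaks were not searched. Among all strict peaks near a TSS of a protein-coding gene, 23.6% held either word within 50 bp of the summit. The summit window of the NR1H2 peak (hg38 plus strand, chr19:50376283-50376383) is shown as an example with a match. The capitals are CCGGAAG read on the other strand.
NR1H2 start: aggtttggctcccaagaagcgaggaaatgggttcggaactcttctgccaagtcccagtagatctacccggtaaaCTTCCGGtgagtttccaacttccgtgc

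In gene bodies, 5 of the 10 genes had a ZBTB11 peak (NKX2-1, FOXA1, SFTPA2, SFTPD and SCGB1A1), against 88.2% of protein-coding genes. A q-filtered peak was left in 3 (NKX2-1, FOXA1 and SFTPD), against 57.6%, and a strict one in 2 (NKX2-1 and FOXA1), against 46.7%. Without the 3 kb around each TSS, SFTPD and SCGB1A1 alone had a peak in the gene body. They are the longest of the 10 genes (45148 and 18093 bp). The share of protein-coding genes under this rule was not computed, so this count has no comparison. The lung genes are short, and 7 of them span at most 10 kb. Of these 7, 3 had a peak in the gene body, against 62.0% (60.7% to 63.3%, Wilson 95% interval) of protein-coding genes of at most 10 kb. That length limit was chosen after the values were seen.

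The number of peaks was also read per length of the windows. The 10 genes had 1.92 peaks per 10 kb of TSS window and all protein-coding genes 1.53. The first value pools the genes and leans on SFTPD, which gave 6 of the 19 peaks in 16399 bp of the 99.18 kb of windows. The windows of a gene were 9531 bp long in the median for the lung genes and 12090 bp for protein-coding genes, since genes with more annotated starts have longer windows. The median number of peaks near a TSS was 1.5 per lung gene and 2 per protein-coding gene, so the direction of this difference turned with the measure. Of the 19 peaks, 13 had at most 6 fragments, and 8 were nearest to a start of another gene. The matching shares of all peaks near a TSS were not computed, so these counts have no comparison. The median was 5 fragments both for the 19 peaks and for the whole ZBTB11 list.

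The genes differed in promoter sequence along their roles. The ratio of observed to expected CpG in the 1 kb around the canonical start was 0.867 at FOXA1, 0.674 at FOXA2 and 0.551 at NKX2-1. It ran from 0.066 (SFTPD) to 0.216 (SFTPC) at the 7 secreted and processing genes, with no overlap between these groups. Of the 20033 protein-coding genes, 13282 had a ratio of at least 0.6. Protein-coding genes with a ratio of at least 0.6 had a ZBTB11 peak near a TSS in 95.6% of cases (95.2% to 95.9%) and a strict one in 62.7% (61.8% to 63.5%). Those with a ratio below 0.6 had one in 72.3% (71.2% to 73.4%) and 15.9% of cases, in the same order. Read against its own class, FOXA2 was among the few CpG-rich genes without a listed peak, and the 8 lung genes below 0.6 had a peak in 7 cases, q-filtered in 4 (50%, against 21.4% in the class) and strict in 2 (25%, against 15.9%). Set against all protein-coding genes (55.3% and 46.9%), these 50% and 25% were lower. Of the 4, NKX2-1 is the transcription factor that falls in this class, and SFTPC and NAPSA had those peaks nearer to other genes. Among the secreted and processing genes alone, 6 of 7 had a peak and 3 of 7 (42.9%) a q-filtered one. A strict one was left in 1 of 7, SFTPC with the peak at BMP1. The 400 olfactory receptor genes, a family used in the nose and silent in most tissues, had a listed peak in 45.8% (40.9% to 50.6%) and a strict one in 3 genes.

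**Figure D4:**
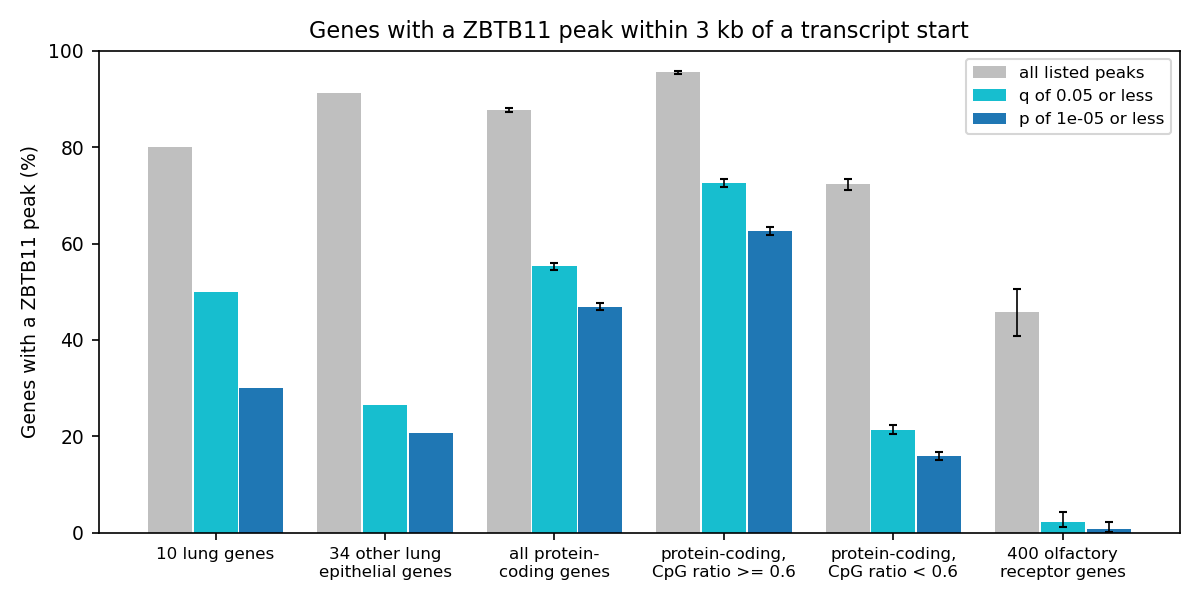
Share of genes, in percent, with a ZBTB11 peak within 3 kb of a transcript start, for all listed, q-filtered and strict peaks. Error bars are Wilson 95% intervals for the large gene sets; the 10 lung genes go from 80% to 50% and 30%, all protein-coding genes from 87.7% to 55.3% and 46.9%.

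The consensus was counted at the peaks of the lung genes. Of the 19 peaks near a TSS, 1 (SFTPB) held CCGGAAG or CAGGAAG on either strand within 50 bp of the summit, and 3 (SFTPB, SFTPC and NAPSA) held it anywhere in the peak. All 3 matches were CAGGAAG. Among the 45753 ZBTB11 peaks near a TSS of a protein-coding gene, 7.93% (7.69% to 8.18%) held it within 50 bp, 3.67% held CCGGAAG there and 23.2% held the consensus anywhere in the peak. Among those of 10 to 13 fragments, the range of the 3 strongest peaks of the lung genes, 11.1% (10.0% to 12.3%) held it within 50 bp, and among strict peaks 23.6% (22.7% to 24.5%). RefSeq promoters were matched for 7 of the 10 genes (SFTPA1, SFTPA2, SFTPB, SFTPD, NKX2-1, FOXA1 and NAPSA), with 11 sequences in all. None of the 11 held the consensus, so none of these 7 genes did. Counted with 1 promoter per gene, it was found in 25.3% of 15345 protein-coding genes.

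Finally, 34 other genes of the lung epithelium were read in the same way. They cover surfactant handling, alveolar type I cells, airway cells and lung transcription factors. A ZBTB11 peak near a TSS was listed for 31 of them (91.2%, against 87.7% of protein-coding genes). A q-filtered one was listed for 9 (26.5%, against 55.3%) and a strict one for 7 (20.6%, against 46.9%). AGER, ELF3 and LAMP3 had no listed peak. The median −log10 p of the strongest peak was 2.88, against 4.54 over all protein-coding genes. In order of p-value, the 7 genes were ABCA3, MUC5B, GATA6, CEBPA, SFTA3, KLF5 and CAV1.

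ABCA3, the lipid transporter of the lamellar bodies in which surfactant is stored, had the highest peak of all lung genes examined. It lay on chromosome 16 at 2339711 to 2340336, with 49 fragments, a fold enrichment of 12.1 and a −log10 p of 40.9, 517 bp from a start of ABCA3. MUC5B, a mucin of the airways, had 28 fragments and a fold enrichment of 11.9, with the summit 3128 bp from its nearest start. GATA6 and CEBPA, transcription factors of alveolar epithelium, had 22 and 19 fragments. The GATA6 summit was 217 bp from a start of GATA6 and 72 bp from one of GATA6-AS1, and the CEBPA summit was 83 bp from a start of CEBPA and 406 bp from one of CEBPA-DT. The SFTA3 peak was the stronger NKX2-1 peak described above. KLF5, a zinc finger factor of the epithelium, had 11 fragments, and CAV1, the caveolin of flat alveolar cells, had 12.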

How the data were processed

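ChIP-seq peaks of NCI-H1299 cells were analysed for 1 ZBTB11 and 1 IgG library, grouped by sample title. The authors mapped paired-end reads with BWA (build hg38), then ran MACS on either antibody by itself with a p-value limit of 0.05. The deposited values are a fold enrichment (a ratio of summit to local background), the −log10 p and the −log10 q of each peak, the summit position, and a score, which is 10 times the −log10 p rounded down and was not used. Reference chromosomes and GENCODE release 44 are of the same build, hg38.

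The members and lists were chosen with earlier results of these data known. All 10 genes are named, with their strongest peak near a TSS. Of the other lung epithelial genes, those with a peak at a p-value of 1e-05 or less were named. A peak was near a TSS if any of its bases fell in the 3 kb on either side of a GENCODE transcript start. Fragments and background were solved from fold enrichment and p-value under a Poisson background, to within 0.001 of the −log10 p, for 100% of peaks in both lists, and the solver was tested on simulated data. Exact copies of 31-mers were counted on both strands of chromosomes 1 to 22, X and Y. The canonical transcript is that of GENCODE. Python 3.11.15, numpy 2.4.6, pandas 2.3.3 and scipy 1.17.1 were used. With 1 library per antibody no test across replicates was possible. Shares carry Wilson 95% intervals. Distance, TSS set, peak threshold and motif window were varied.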

Additional observations from a re-analysis of the deposited data

How the results depend on the processing

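No paired analysis was possible because each antibody has 1 library. In all, 6 results were recomputed under 38 alternatives, of which 6 (peaks of at least 5 fragments, and peaks whose nearest start is of the gene itself) were chosen after seeing the data. By a limit of 1.5 times for counts and the Wilson interval for the share, 16 values held and 22 moved, and in each case the cause was not tested. Of the 10 lung genes, 8 had a ZBTB11 peak near a TSS, and 6 to 9 under the other distances, starts, summits and pileups. This fell to 5 with q-filtered peaks, 3 with strict peaks, and 5 where the nearest start had to be of the gene (NKX2-1, SFTPA2, SFTPB, SFTPD and SCGB1A1). The share of protein-coding genes was 77.6% within 1 kb, 92.1% within 5 kb, 81.5% with canonical starts, 87.1% by summits, 55.3% by q-value, 46.9% by p-value, 79.3% with the nearest start of the gene and 80.1% with at least 5 fragments. The 31 other lung genes became 9 by q-value and 7 by p-value. Collectin genes with an IgG peak went from 2 to 1 within 1 kb and to 0 by q-value and by p-value. Lung genes with a peak in the gene body went from 5 to 2 without the TSS windows, 3 by q-value and 2 by p-value. Peaks with the consensus went from 1 to 3 in whole peaks, and to 0 for CCGGAAG only and for strict peaks. Most peaks of the lung genes rest on 3 to 6 fragments, around the median of 5 of the whole list. At this depth the absence of a peak at FOXA2 or SFTPA1 does not show the absence of ZBTB11.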

Other observations

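The surroundings of the lung genes held further ZBTB11 peaks, each nearest to a start of another gene. Within 100 kb of the canonical start, and apart from the peaks described above, strict peaks were listed for 5 of the 10 genes. A peak of 130 fragments lay 81291 bp upstream of SCGB1A1, 239 bp from a start of ASRGL1. A peak of 72 fragments lay 83408 bp downstream of the SFTPC start, 29 bp from POLR3D, which encodes a subunit of RNA polymerase III, and one of 10 fragments lay at -72213 bp, 377 bp from FHIP2B. A peak of 66 fragments lay 44313 bp downstream of the SFTPD start, 106 bp from the unnamed gene ENSG00000283913. For SFTPB there were 3, of 58 fragments near C2orf68, 23 near ENSG00000288858 and 16 near USP39, a splicing factor gene. NKX2-1 had 1, of 10 fragments at -61144 bp from its start, 1238 bp from NKX2-8, its homeobox neighbour. NAPSA had none besides the NR1H2 peak. FOXA1, FOXA2, SFTPA1 and SFTPA2 had no further strict peak within 100 kb, and had 4, 8, 19 and 29 further listed peaks of any p-value there.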
